A study of Mus musculus with 66 samples.

Results

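Linker histone H1 genes encode the proteins that sit on the nucleosome where DNA enters and leaves and that help fold nucleosome arrays into more compact chromatin. The mouse genes followed here were the 8 named Hist1h1a, Hist1h1b, Hist1h1c, Hist1h1d, Hist1h1e, Hist1h1t, H1f0 and H1fx, taken by gene symbol wherever a table listed them. Of these 8 genes, 7 were listed in at least 1 table. The 3′-seq tables held 5 of them (Hist1h1a, Hist1h1c, Hist1h1d, Hist1h1e and Hist1h1t) among 76 histone genes, and the mRNA-Seq table held H1f0 and H1fx among 22489 genes. Hist1h1b was listed in neither assay, so no value is given for it. No member had values from both assays.

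Hist1h1a, Hist1h1b, Hist1h1c, Hist1h1d and Hist1h1e are the somatic, replication-dependent H1 genes, whose transcription rises in S phase and whose mRNA as a rule ends in a stem-loop in place of a poly(A) tail. Hist1h1t is the testis form, made in spermatocytes. H1f0 encodes H1.0, a replacement linker histone known to accumulate in cells that have stopped dividing, and H1fx encodes H1X; both are made from polyadenylated mRNA. Both assays reached mRNA through its poly(A) tail, since the mRNA-Seq RNA was reverse-transcribed from an oligo dT primer and 3′-seq counts reads at polyadenylated 3′ ends. Values of the stem-loop genes therefore describe their polyadenylated transcripts only.

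For 3′-seq, total RNA came from brain, liver, skeletal muscle and testis of C57BL/6 male mice aged 8 weeks, with 2 libraries a tissue, and from C2C12 cells, a mouse myoblast line, with 1 growth and 1 differentiated library. For mRNA-Seq, 10 kinds of C2C12 cells gave 1 growth and 1 differentiated library each: cells without a transgene (WT) and 9 Tet-On lines carrying a gene for an H3 protein with GFP at its N terminus behind a doxycycline-inducible promoter. The tagged proteins were H3.1, H3.2 and H3t, here called H3.1/H3.2-type, and H3.3 together with the variants H3mm7, H3mm11, H3mm12, H3mm13 and H3mm16, here called H3.3-type. Growth cells were kept in 20% fetal bovine serum and taken before confluence, and differentiated cells had spent 48 h in 2% horse serum. Each GFP-H3 line is a separately derived stable line with a single library a state, so a difference between H3 proteins cannot be told apart from a difference between lines. Nothing in the labels says whether the 2 libraries of a tissue came from separate mice, so their p-values measure only the spread between those libraries, which may be technical.

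The stem-loops are printed first because they set the replication-dependent members apart from H1f0 and H1fx and bear on what poly(A)-based libraries can count. The mm9 sequence after each stop codon was searched for a stem of 6 base pairs that opens with GG and encloses a loop of 4 bases beginning with TT, and 1 match was found in each of the 6 Hist1h1 genes, starting 25 to 41 bases after the stop codon. Windows of 30 bases are given 5′ to 3′ with the 16 bases of the stem-loop in capitals. They lie on chromosome 13 at chr13:23856254-23856283 (plus strand, Hist1h1a), chr13:21871699-21871728 (minus, Hist1h1b), chr13:23831374-23831403 (plus, Hist1h1c), chr13:23647649-23647678 (plus, Hist1h1d), chr13:23713644-23713673 (minus, Hist1h1e) and chr13:23788387-23788416 (plus, Hist1h1t).
Hist1h1a: acccaacGGCTCTTTTCAGAGCCaccaaca
Hist1h1b: ccccaaaGGCTCTTTTCAGAGCCacctaga
Hist1h1c: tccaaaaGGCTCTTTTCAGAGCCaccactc
Hist1h1d: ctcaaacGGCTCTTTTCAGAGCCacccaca
Hist1h1e: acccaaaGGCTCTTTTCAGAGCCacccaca
Hist1h1t: acccaaaGGCTCTTTTAAGAGCCacttaca

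The 5 somatic genes shared the same stem-loop letters, and Hist1h1t differed from them by C10A (the base of Hist1h1c first, counted from 1 at the 5′ end of the stem-loop). The same rule was applied to annotated transcripts of the 18374 protein-coding genes with a 3′-UTR of at least 100 bases. A stem-loop was found in the first 100 bases after the stop codon in 26 of them (0.142%). The length limit leaves out Hist1h1a, Hist1h1b and Hist1h1e, and also other histone genes with a shorter 3′-UTR. That share is therefore not matched to the search of the H1 genes. None was found within 1000 bases downstream of H1fx, or within 1000 bases of the annotated end of H1f0. The 6 Hist1h1 genes and H1fx are annotated as single-exon protein-coding genes, H1fx at chr6:87930416-87931476 (minus strand). In the mm9 annotation used here, GENCODE vM1, H1f0 is a pseudogene of 3 exons at chr15:78859152-78859689 (plus strand), which gives no stop codon from which to measure. Which exons the authors' FPKM of H1f0 was counted over is not given in the sources used here.

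The length of the annotated 3′-UTR set the Hist1h1 genes apart from each other. It was 3097 bases in Hist1h1d, 879 bases in Hist1h1c and 224 bases in Hist1h1t, against 83 bases in Hist1h1e, 56 bases in Hist1h1a and 0 in Hist1h1b. The poly(A) signal AATAAA stood inside the annotated 3′-UTR of Hist1h1c (855 bases after the stop codon), Hist1h1t (204 bases), Hist1h1d (3 copies, the first at 1701 bases) and H1fx (349 bases). In Hist1h1a, Hist1h1b and Hist1h1e the first AATAAA lay beyond the annotated transcript, at 2256, 1107 and 2111 bases. Over those 18374 genes, 61.2% had AATAAA in the last 50 bases of the transcript. By that narrower measure Hist1h1c, Hist1h1t and H1fx had it. Hist1h1d did not, since its last copy stood at 2658 of 3097 bases.

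**Figure D1:**
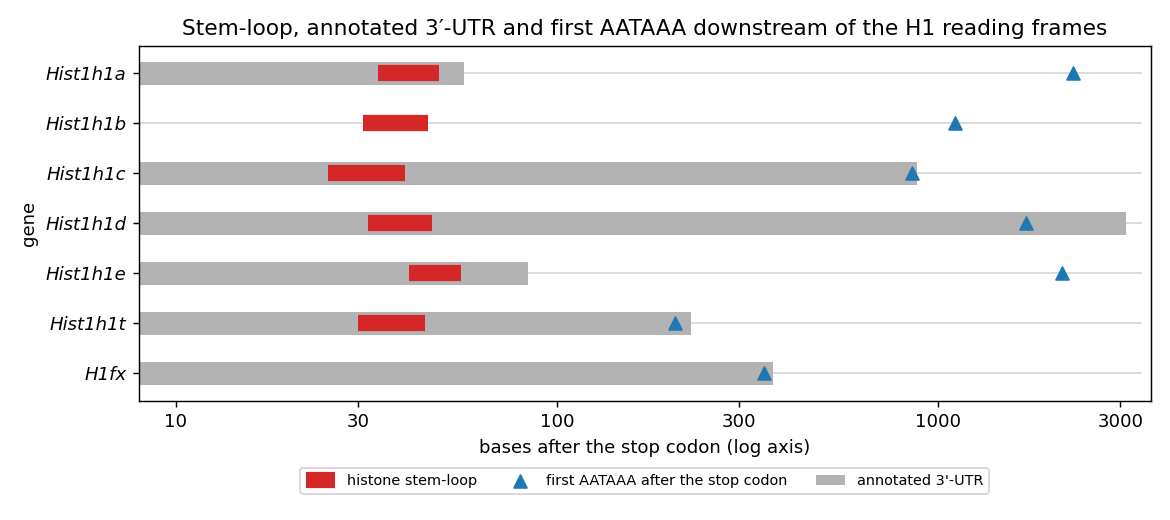
Bases downstream of the stop codon (log axis) in the 7 H1 genes with an annotated stop codon: the stem-loop (red), the annotated 3′-UTR (grey) and the first AATAAA (triangle). The triangle lies inside the grey bar in Hist1h1c, Hist1h1d, Hist1h1t and H1fx, and beyond it in Hist1h1a, Hist1h1b and Hist1h1e.

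Only the 3 listed H1 genes with AATAAA in the annotated 3′-UTR had 3′-seq reads. Hist1h1c had 453 reads over the 8 tissue libraries, Hist1h1d had 14 and Hist1h1t had 3, while Hist1h1a and Hist1h1e had 0 reads in all 10 libraries. The other histone genes of these tables with an annotated coding transcript showed a similar split: 13 of 16 with AATAAA in the annotated 3′-UTR had a read in a tissue library, against 8 of 39 without. These counts are a description, because reads were counted in 3′-UTRs, whose annotated length differs in the same direction. Its median in GENCODE vM1 was 1250 bases with AATAAA and 77 bases without among those other genes. The authors' counting regions may differ from these lengths. A shorter counting region and a missing signal cannot be told apart.

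The promoters were examined because the Hist1h1 genes are known to share an H1 box, read here as AAACACA on either strand. RefSeq sequences of GRCm38.p6 from 250 bases before to 50 bases after the start were found for all 8 members. The H1 box was in 5 of 8 (Hist1h1b, Hist1h1c, Hist1h1d, Hist1h1e and Hist1h1t), 112 to 122 bases before the start, against 7.18% of 32851 promoters. CCAAT was in the 6 Hist1h1 promoters (37.4% of all promoters) and TATAAA in 4 of them (13.6%), and neither H1f0 nor H1fx held any of these 3 motifs. The H1 boxes of the 3 genes with reads are shown in capitals, at chr13:23738684-23738713, chr13:23554899-23554928 and chr13:23695686-23695715 of GRCm38.p6 (plus strand).
Hist1h1c: tgaagtgtaacAAACACAagttgggcgcag
Hist1h1d: tgaggggcaacAAACACAgccacaaggcaa
Hist1h1t: ggggggaaaagAAACACAaatgcccctcct

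The first question for H1f0 and H1fx was whether their mRNA changed as C2C12 cells went from growth to the differentiated state. H1fx mRNA fell in the differentiated state, to a lower level in 10 of 10 lines, whereas H1f0 went up in some lines and down in others. In growth, the FPKM of H1fx (fragments scaled to transcript length and to the mapped fragments of the library) was 66.7 in H3.1, 61.0 in H3.2, 76.6 in H3.3, 96.5 in H3mm7, 54.8 in H3mm11, 59.9 in H3mm12, 92.5 in H3mm13, 79.7 in H3mm16, 30.1 in H3t and 34.9 in WT. In differentiated cells its FPKM was 37.3 in H3.1, 16.3 in H3.2, 18.2 in H3.3, 10.7 in H3mm7, 14.0 in H3mm11, 18.3 in H3mm12, 22.5 in H3mm13, 19.5 in H3mm16, 9.76 in H3t and 12.9 in WT. H3t and WT were the lowest growth libraries and H3.1 the highest differentiated library. The groups overlapped there, since the differentiated H3.1 value was above the growth values of H3t and WT. Differentiated libraries that were all below all growth libraries were seen in 8.74% of genes, and H1fx was not among them.

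On the log2(FPKM + 1) scale, H1fx was 5.96 ± 0.55 (SD, n = 10) in growth and 4.15 ± 0.53 (n = 10) in differentiated cells. The difference was -1.82 (SE 0.23, 95% interval -2.29 to -1.34), a 3.52-fold lower level, with an adjusted p of 6.12e-07 by limma over 10954 genes with a mean of at least 1 FPKM. Within lines, the ratio of differentiated to growth FPKM ran from 0.111 in H3mm7 to 0.559 in H3.1. Genes were called where the adjusted p was under 0.05 and the log2 difference reached 1 in size, and 8.41% of the genes tested were called lower and 8.87% higher. A lower value in 10 of 10 lines was seen in 21.5% of genes, and H1fx stood at the 3.28 percentile of all differences. In bulk RNA, fewer cells that express a gene and less RNA a cell cannot be told apart.

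**Figure D2:**
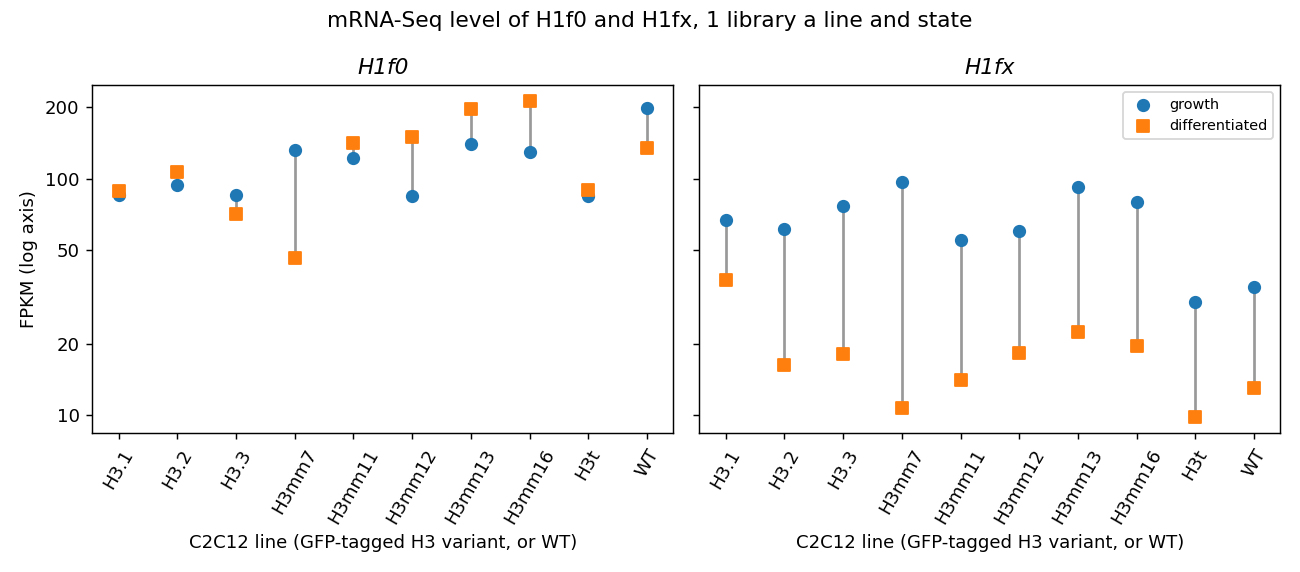
FPKM (log axis) of H1f0 (left) and H1fx (right) in the growth (circle) and differentiated (square) library of each C2C12 line, joined by a line. H1fx is lower in the differentiated library of 10 of 10 lines, and H1f0 is higher in 7 of 10.

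H1f0 was the more abundant of both, at the 93.2 percentile of mean level among the genes tested, where H1fx was at the 75.8 percentile. Its growth FPKM was 85.0 in H3.1, 94.3 in H3.2, 85.2 in H3.3, 131.8 in H3mm7, 121.8 in H3mm11, 84.1 in H3mm12, 139.4 in H3mm13, 129.5 in H3mm16, 84.4 in H3t and 198.0 in WT. Its differentiated FPKM was 88.3 in H3.1, 106.7 in H3.2, 71.0 in H3.3, 46.1 in H3mm7, 141.4 in H3mm11, 149.7 in H3mm12, 197.4 in H3mm13, 213.3 in H3mm16, 89.4 in H3t and 134.1 in WT. WT had the highest growth value and a lower differentiated value, and the groups overlapped over most of their range.

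The mean difference of H1f0 was 0.03 on the log2 scale (SE 0.24, 95% interval -0.47 to 0.52, adjusted p = 0.937 by limma). That interval covers ratios of differentiated to growth level from 0.723 to 1.43. The value was higher in differentiated cells in 7 of 10 lines, with the largest ratio, 1.78, in H3mm12, and it was lower in H3.3, H3mm7 and WT, where the ratios were 0.834, 0.349 and 0.677. The sign of the mean difference depended on single lines: it was -0.06 without H3mm12, -0.03 without H3mm13 and -0.05 without H3mm16. It was 0.09 without WT and 0.19 without H3mm7.

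The spread of H1f0 between lines was wider in differentiated cells, with an SD of 0.68 on the log2 scale against 0.42 in growth. Over all genes the median SD was 0.34 in differentiated cells and 0.24 in growth, so H1f0 varied more than most genes in both states (86.8 and 85.9 percentile). Differentiated H1f0 spanned 46.1 FPKM in H3mm7 to 213.3 FPKM in H3mm16, a 4.63-fold range, against a 2.35-fold range in growth. For H1fx the SD was 0.53 and 0.55, at the 78.6 and 92.4 percentile.

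The combined level and the share of each gene describe the polyadenylated H1 mRNA these libraries list. The sum of H1f0 and H1fx was 180.6 ± 42.2 FPKM (SD, n = 10) in growth and 141.7 ± 55.5 FPKM (n = 10) in differentiated cells, and it was higher in differentiated cells in 2 of 10 lines. H1f0 made up 63.5% ± 9.7 of that sum in growth, from 52.6% in H3.3 to 85.0% in WT, and 86.1% ± 7.0 in differentiated cells, from 70.3% in H3.1 to 91.6% in H3mm16. The share was higher in the differentiated library of 10 of 10 lines. The ratio of H1f0 to H1fx ran from 1.11 to 5.68 in growth and from 2.37 to 10.9 in differentiated cells. These sums leave out the Hist1h1 genes, which the mRNA-Seq table did not list, and FPKM is scaled within a library, so they are not amounts of H1 a cell.

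**Figure D3:**
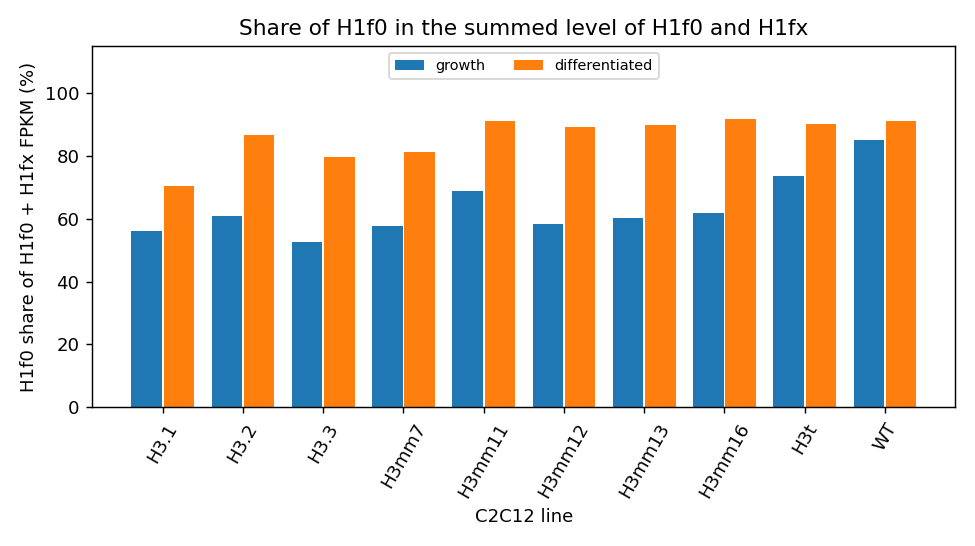
Share of H1f0 in the summed FPKM of H1f0 and H1fx (percent, from 0) in growth and differentiated libraries of each C2C12 line. The share is higher in differentiated cells in 10 of 10 lines and is 85.0% in WT growth, the highest growth value.

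The second question was whether cells with an H3.3-type protein differed in H1 mRNA from those with an H3.1/H3.2-type protein, in 6 and 3 lines. Neither H1 gene was called in either state. In growth the difference was 0.36 for H1f0 (95% interval -0.40 to 1.12, limma adjusted p = 0.801) and 0.59 for H1fx (-0.11 to 1.28, adjusted p = 0.616). In differentiated cells it was 0.34 for H1f0 (-0.42 to 1.10, adjusted p = 0.648) and -0.11 for H1fx (-0.81 to 0.58, adjusted p = 0.879). These intervals leave room for differences of about 1 on the log2 scale. Single lines moved the values: without H3t the growth difference of H1fx was 0.23, and the differentiated difference of H1f0 was 0.17 without H3mm16, 0.20 without H3mm13 and 0.61 without H3mm7. Among all genes, 0.21% were called in growth and 0.749% in differentiated cells.

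The interaction, which asks whether the response to differentiation differed by H3 type, was -0.02 for H1f0 (95% interval -1.10 to 1.05, limma adjusted p = 0.996) and -0.70 for H1fx (-1.69 to 0.28, adjusted p = 0.710). By limma 0 genes were called for the interaction (0%), while 1002 of 10954 had an unadjusted p below 0.05. Differentiated H1f0 had an SD of 0.87 on the log2 scale among the 6 H3.3-type lines and 0.15 among the 3 H3.1/H3.2-type lines. H3mm7 and H3mm16, the lowest and the highest differentiated values of H1f0, were both H3.3-type.

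The remaining genes of the H1 family in the mRNA-Seq table were the germ-line forms. H1fnt, a spermatid form, was listed at 0 in all 20 libraries, and H1foo, the oocyte form, was above 0 only in the H3.1 line, at 0.0265 FPKM in growth and 0.0249 FPKM in differentiated cells. Hils1, another spermatid form, reached at most 0.330 FPKM. None of them passed the filter of a mean of 1 FPKM.

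Genes whose products handle or compete with H1 were mostly at lower levels in differentiated cells. Among all genes tested, 8.41% were called lower and 8.87% higher. Of 20 chaperones, importers and high-mobility-group competitors of H1, 10 were called lower and 0 higher. The median difference of these 20 was -1.15, where the median of all genes was 0.04. The largest differences among those called were those of Hmgb2 at -3.003, Hmga1 at -2.51, Nasp at -2.21 and Hmgb3 at -2.14. Nasp encodes a chaperone that binds H1 as well as H3 and H4, and the others encode high-mobility-group proteins that bind linker DNA. Over the 18 alternatives the count ran from 9, without H3.3 or without H3mm11, to 13, without WT, and it was 12 with the cell line as a block. WT stood apart from the GFP-H3 lines: 122 genes with a median of at least 20 FPKM in those lines were at least 8-fold lower in both WT libraries than in the lowest GFP-H3 library. Among the listed genes only Hmgn2 was one of these, and H1f0 and H1fx were not. No matching count is given for genes higher in WT or for a single GFP-H3 line, so how unusual 122 is remains unknown.

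Of 15 genes of histone mRNA synthesis and processing, 14 were tested. Of these, 5 were called lower, where 8.41% of all genes tested were, and 0 higher, with a median of -0.61. Ccne1 and Ccne2, cyclins whose kinase activates histone gene transcription, differed by -3.08 and -2.92. Slbp, which encodes the protein that binds the stem-loop printed above, differed by -1.73, from a mean of 49.0 FPKM in growth to 14.2 FPKM in differentiated cells. Casp8ap2, a component of the histone locus body, differed by -1.04. The count was 4 under 5 of 18 alternatives, without H3mm13, H3mm16, H3t or WT and with equal library medians, since Eri1, at -1.02, then fell short of the size needed for a call.

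Of the DNA replication list, all 17 genes were called lower, against 8.41% of all genes tested. The median was -3.01, and the list was led by Tk1 at -4.49, Mcm5 at -4.39, Mcm3 at -3.81 and Chaf1b at -3.22. The difference of H1fx, -1.82, lay near those of Pcna at -1.80 and Rrm1 at -1.70, the smallest of this list. Of 9 replacement core histone genes 6 were tested, and Cenpa at -4.20, H2afx at -2.83 and H2afz at -1.77 (SE 0.69, limma adjusted p = 0.0321) were called lower. The call of H2afz was lost under 8 of 18 alternatives, with adjusted p-values of 0.0504 to 0.0668: without filter and without H3.1, H3.2, H3mm11, H3mm12, H3mm13, H3mm16 or H3t. Of the testis core histone genes only H2afb1 was listed, and its growth mean was 0.0386 FPKM.

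Most muscle markers moved with the culture state as labelled. Of 10 muscle markers 8 were called higher, where 8.87% of all genes tested were, and 0 lower. They were led by Actc1 at 8.55, Mylpf at 8.21, Tnnc2 at 8.12 and Ckm at 7.51. Myod1 at 0.79 (limma adjusted p = 0.169) and Myf5 at -0.05 (limma adjusted p = 0.884) were not called. The summed level of the 10 muscle markers was 266 to 819 FPKM in growth and 4883 to 24780 FPKM in differentiated cells. Myog, which encodes myogenin, went from a mean of 8.95 FPKM to 648 FPKM. Of 10 adipocyte and osteoblast markers only 3 passed the filter, with Bglap2 called higher (2.19) and Runx2 called lower (-1.20), and their summed level was 9.94 to 17.7 FPKM in growth and 5.64 to 24.5 FPKM in differentiated cells. Of the 7 that did not pass, the means in growth and differentiated cells were 0.280 and 0.865 FPKM for Cebpa, 0.209 and 0.436 FPKM for Bglap, and 0.236 and 0.0126 FPKM for Alpl. Adipoq, Plin1, Ibsp and Sp7 had means below 0.1 FPKM in both states, with Ibsp at 0 in growth. The part of the shift in cell state in the H1fx difference was not tested.

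**Figure D4:**
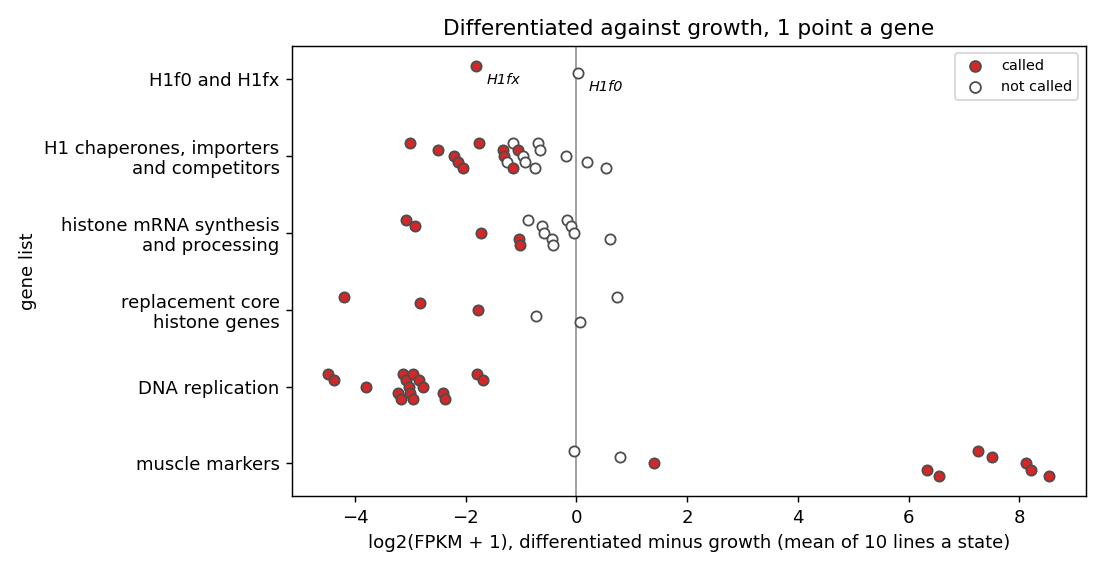
Difference in log2(FPKM + 1) between differentiated and growth cells for H1f0, H1fx and the genes of 5 lists, 1 point a gene, filled where called. H1fx lies at -1.82 and H1f0 at 0.03, the 17 DNA replication genes lie between -4.49 and -1.70, and 8 of 10 muscle markers are called higher.

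The genes whose pattern over the 20 libraries was most like that of each H1 gene were ranked by Pearson's r after the mean of each state was subtracted. For H1f0 they were Kif16b (r = 0.887), Plk1s1 (0.884), Cdkl3 (0.861), 4930539J05Rik (0.846) and Dcaf6 (0.845). For H1fx they were Plxnd1 (0.875), Ssbp3 (0.869), Id1 (0.8499), Tsen34 (0.849) and Rilpl2 (0.849). H1f0 and H1fx themselves gave an r of 0.172. The points share cell lines, since each line gives 2 libraries, and these values are descriptions picked as the highest of 10953.

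Among the 5 H1 genes listed for 3′-seq, Hist1h1c, which encodes H1.2, had the most polyadenylated 3′ ends in the tissues. H1f0, H1fx and Hist1h1b have no tissue value, so they have no place in this ranking. RPM scales the reads of a gene to library depth, and the whole reads behind it could be worked out from the steps between values, so exact Poisson 95% intervals are given, which cover counting error only. Skeletal muscle had 20.6 RPM (290 reads, 18.3 to 23.1) in replicate 1 and 12.7 RPM (98 reads, 10.3 to 15.5) in replicate 2. Liver had 6.31 RPM (28 reads) and 2.06 RPM (13 reads), brain had 2.73 RPM (16 reads) and 0.688 RPM (4 reads), and testis had 0.833 RPM (3 reads) and 0.136 RPM (1 read). Replicates here are the 2 deposited tables. In both tables the order was skeletal muscle, liver, brain and testis, and both muscle libraries were above the other 6, which 10.8% of the 37 histone genes with a tissue read also showed.

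**Figure D5:**
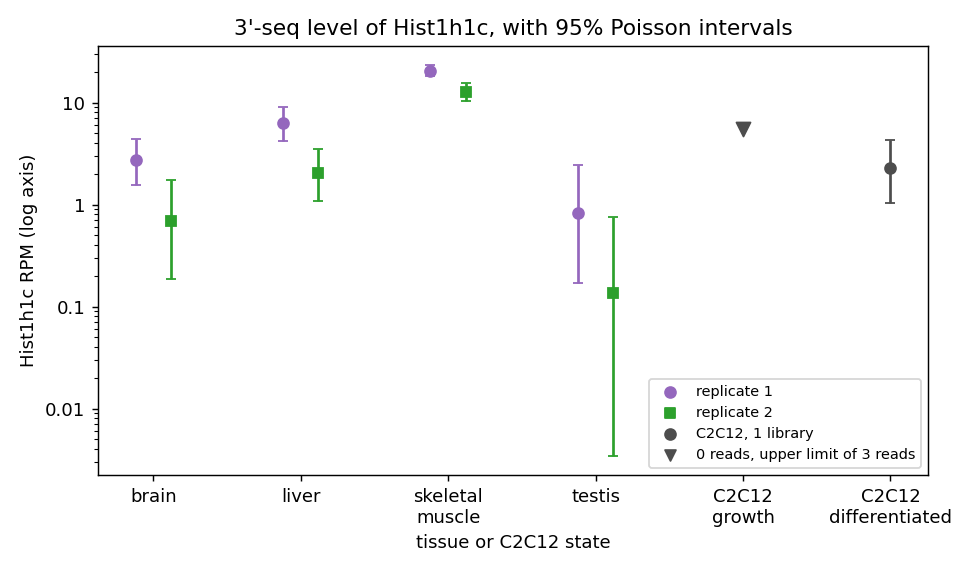
RPM of Hist1h1c (log axis) in each 3′-seq library, with exact Poisson 95% intervals from the reads. Both skeletal muscle libraries (20.6 and 12.7 RPM) lie above the other tissue libraries, and the triangle for C2C12 growth marks the upper limit of 5.56 RPM that 0 reads allow.

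Despite that order, the tissue differences of Hist1h1c were barely separable from the spread between the 2 libraries of a tissue. On the log2(RPM + 0.1) scale the means ± SD (n = 2) were 4.03 ± 0.49 in skeletal muscle, 1.90 ± 1.11 in liver, 0.58 ± 1.31 in brain and -1.09 ± 1.40 in testis. The limma F test over the 4 tissues gave an adjusted p of 0.0824 over 37 genes, where 10.8% of genes were called. Skeletal muscle against the mean of the other tissues was 3.57 (SE 0.87, limma adjusted p = 0.0697), not called, where 2.7% of genes were called higher. Testis against the others was -3.26 (SE 0.87, limma adjusted p = 0.0389), called, where 2.7% of genes were called lower. That call was lost without any 1 of the 8 libraries, with adjusted p-values of 0.0545 to 0.262 and differences of -4.25 to -2.27. The testis values rest on 4 reads.

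Liver and brain, the middle of the order, were not called different from each other or from their neighbours, with 2 libraries a tissue. The 6 pairs of tissues were compared by limma with adjustment over 222 tests, of which 6.31% were called. Only skeletal muscle and testis were called different, by 5.12 (95% interval 2.55 to 7.69, limma adjusted p = 0.0408). The difference from skeletal muscle was -3.45 for brain (-6.02 to -0.88) and -2.13 for liver (-4.70 to 0.44), with limma adjusted p-values of 0.140 and 0.426. Liver minus testis was 2.99 (0.42 to 5.56, limma adjusted p = 0.192). These intervals are not adjusted for the number of tests, and they leave room for large differences. An exact permutation test, on the spread of the tissue means, of the tissue names within each table gave p = 0.0417, the smallest that its 24 arrangements allow, and 0.125 after adjustment over the 3 members with reads. The pair tests and this permutation test were chosen after the values were seen.

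The 2 libraries of a tissue also differed from each other in Hist1h1c. Replicate 1 was higher in 4 of 4 tissues, and exact binomial tests on reads, which compare libraries and not conditions, gave adjusted p-values of 0.000178 in skeletal muscle, 0.00233 in liver, 0.0207 in brain and 0.150 in testis. Hist1h1c made up 15.8% and 2.63% of the summed RPM of the 76 histone genes in skeletal muscle, as the second and the fourth most abundant gene. It made up at most 2.69% in each other tissue library.

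Hist1h1d, which encodes H1.3, had 13 reads (0.925 RPM) in skeletal muscle replicate 1 and 0 in replicate 2. In replicate 2, 3 reads, the limit set here for a count of 0, would be 0.390 RPM. Those 2 libraries differed beyond counting error (exact binomial test, adjusted p = 0.0144). Brain replicate 1 had 1 read and the other 6 tissue libraries had 0. No tissue contrast of Hist1h1d was called, and the largest was 1.44 for skeletal muscle (SE 0.89, limma adjusted p = 0.504).

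Hist1h1t reads came from testis alone, with 2 reads (0.555 RPM) in replicate 1 and 1 read (0.136 RPM) in replicate 2. Both testis libraries were thus above the other 6, as in 24.3% of the 37 genes. Testis against the other tissues was 1.98 (SE 0.43, limma adjusted p = 0.0291) and was called, where 21.6% of genes were called higher in testis. Hist1h1t was among the genes tested only through its testis reads, so this call adds no support beyond those reads. The call rests on 3 reads and on the pseudocount: with 1 RPM added the difference was 0.41, under the size needed for a call, and without 1 library of another tissue the adjusted p was 0.0522 to 0.0727. The exact permutation test gave p = 0.25. As a check of the testis label, H3t (Gm12260), the H3 gene named for testis, had 2 reads (0.555 RPM) and 3 reads (0.408 RPM) in the testis libraries and 0 in the other 8, and it passed the limma F test (adjusted p = 0.0239). Like Hist1h1t, H3t was among the genes tested only through its testis reads, so this p-value adds no support beyond those reads. H3t was chosen after its values were seen and the study described it on these same libraries, so it is not independent evidence. Hist1h2ba, a testis H2B gene, had 0 reads in all 10 libraries. The tables list histone genes only, so no marker of brain, liver or skeletal muscle could be checked.

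Hist1h1a and Hist1h1e, which encode H1.1 and H1.4, had 0 reads, so no polyadenylated 3′ ends of theirs were detected at this depth. Stem-loop mRNA of theirs without a poly(A) tail is not counted at any depth. Their 0 reads allow up to 0.213 RPM in skeletal muscle replicate 1, the deepest library with 14060394 uniquely mapped reads, and up to 0.833 RPM in testis replicate 1, the shallowest of the tissues with 3602579. In C2C12 growth, with 539990 uniquely mapped reads, the limit was 5.56 RPM.

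In C2C12 cells, 3′-seq gave Hist1h1c 0 reads in growth and 9 reads in the differentiated state, where the level was 2.28 RPM (95% interval 1.04 to 4.32). With 1 library a state there is no replicate check. The limit of 5.56 RPM in growth lies above the interval in differentiated cells, so no difference was detectable at this depth. Hist1h1a, Hist1h1d, Hist1h1e and Hist1h1t had 0 reads in both C2C12 libraries, which allows up to 0.759 RPM in the differentiated one.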

How the data were processed

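The deposited 3′-seq values are RPM: per the labels and the study's methods, the authors mapped reads to mm9 with STAR, kept uniquely mapped reads and counted those in 3′-UTRs. The deposited mRNA-Seq values are FPKM, made by the authors with TopHat2 2.0.8 and cuffdiff of Cufflinks 2.0.1 (submitters' processing notes). Library depth of mRNA-Seq is unknown. From these, reads behind RPM were worked out as whole multiples of 1 read (within 0.01 reads) with exact 95% intervals and a limit of 3 reads for 0.

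mRNA-Seq was tested with limma 3.58.1 (trend, robust; R 4.3.3) on log2(FPKM + 1), mean at least 1 FPKM, 10 against 10 libraries and 6 against 3 lines, and 3′-seq with limma (trend) on log2(RPM + 0.1) in 37 genes with a tissue read, with Benjamini-Hochberg adjustment over all genes and calls at 0.05 and 1 log2 unit. Both states of a line are the same cells: deviations from state means correlated within every line (r 0.273 to 0.877), so a fit with the line as a block was an alternative.

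Named list genes are at most 4 a list with the largest difference among those called. Beside them are genes a sentence needs, chosen after their values were seen. These are Pcna, Rrm1, Eri1, Myog, Myod1, Myf5, Hmgn2, H3t, Hist1h2ba and markers under the filter. Likeness was set for H1f0 and Hist1h1c, and H1fx took the place of Hist1h1c, which is not in the mRNA-Seq table. The members and lists were chosen with earlier results of these data known. Figures were drawn with matplotlib 3.10.9. ChIP-seq and input samples were not analysed here.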

Additional observations from a re-analysis of the deposited data

Results flagged for a closer look

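A library that stood far from the others of its group was found in 2 of the 4 sets of 10 values, H1f0 and H1fx in each state, by Dixon's test on FPKM. Chance gives about 1 such library in 20 groups. H1f0 in WT growth was 198.0 FPKM, where the highest of the 9 GFP-H3 lines was 139.4 FPKM. H1fx in differentiated H3.1 cells was 37.3 FPKM, where the next value was 22.5 FPKM in H3mm13. On the log2 scale neither gap passed the test (0.411 and 0.384 of the range, against 0.466). WT is also the line without a transgene, and its distance from the other lines in 122 further genes was given above. Without H3.1 the difference of H1fx was -1.93, and without WT that of H1f0 was 0.09. The part of either library's other properties in these values was not tested.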

How the results depend on the processing

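H1fx stayed lower in differentiated cells, and called, under all 18 alternatives, at -1.93 to -1.68 (adjusted p 3.31e-07 to 5.75e-06). They covered pseudocounts, filters, scaling between libraries, limma settings, the cell-line block (-1.82, adjusted p = 1.10e-06) and leaving out each line. The block changed the call of neither H1f0 nor H1fx. H1f0 was called under none, ran from -0.064 to 0.19 without single lines and was -0.055 with quantile normalization. The H3-type values of H1f0 and H1fx were called under none, and changed sign for H1fx in differentiated cells without H3.1 (0.38) or H3mm7 (0.0048), in a range of -0.53 to 0.38, and for the H1f0 interaction without H3.2 (0.01), H3.3 (0.05) or H3mm7 (0.29), in a range of -0.17 to 0.29. The counts of genes called between H3 types, 23 in growth and 82 in differentiated cells, were 46 and 134 with 0.1 FPKM added and 14 and 49 with a mean of at least 5 FPKM. Leaving out 1 line gave 2 to 25 in growth and 3 to 295 in differentiated cells, lowest without H3.1, and 0 to 2 for the interaction. The interaction count, 0, was 1 with a mean of at least 5 FPKM, 5 with quantile normalization and 3 with the cell-line block. Without H1fx the summed growth level of 180.6 FPKM was 115.3 FPKM.

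In the tissues, 4 genes passed the F test and 10 contrasts were called. With histone-sum scaling these were 11 and 21, and leaving out 1 library gave 1 to 11 and 4 to 18. The F count was 2 with the table number as a block, a number the libraries only share (r of deviations -0.286 to 0.569 between tissues). Under that block Hist1h1c passed the F test (adjusted p = 0.0242) and skeletal muscle was called (0.0211). With 1 RPM added these were 0.0457 and 0.0258, with a mean of at least 1 RPM 0.00167 and 0.00984, and the F test passed with histone-sum scaling (0.0493). The testis call of Hist1h1c was also lost with 0.01 RPM added (0.0579). Hist1h1c changed sign in brain with histone-sum scaling (0.16) and in liver without liver replicate 1 (-0.062), where leaving out 1 library gave up to 1.51. Hist1h1d changed sign in brain with 1 RPM (-0.044), without brain replicate 1 (-0.56) or skeletal muscle replicate 2 (-0.40), and in skeletal muscle without replicate 1 (-0.24). Leaving out 1 library gave up to 0.88 and 3.12 for these. All values above 0 were whole reads within 0.01 reads. A count model on these reads was planned and not run. The cause of these changes was not tested.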
